A study of Mus musculus with 24 samples.

Results

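The comparison described here is that of brown fat without Hdac3 against brown fat with it, in mice that stayed at 22 °C. All genes of the authors' deposited table for this comparison were taken, 12710 of the 13162 genes listed in any of the study's 5 tables, and the deposited means of the KO and Control groups at 22 °C are the values described. RNA was sequenced from the interscapular brown fat of mice (male, C57BL/6, aged 10 to 12 weeks), collected at ZT10 (Zeitgeber time, hours after lights on). Control mice carried floxed Hdac3 alleles without Cre. KO mice carried the same floxed alleles and Ucp1-cre, a Cre recombinase under the promoter of Ucp1, which is active in brown adipocytes, so that other cells of the fat pad keep the gene. Only KO mice carried Cre, so the loss of Hdac3 and the presence of Cre cannot be told apart. Each group held 4 libraries, 8 of the study's 24. The 16 others come from Control and KO mice that spent 24 h at 15 °C and returned to 22 °C for 24 h or 7 d, and they are used only to show where the comparison at 22 °C differs. The labels call the libraries biological replicates and do not say whether each came from its own mouse, so p-values measure spread between libraries. The authors' fit may take its spread from all groups and not from these 8 libraries alone.

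Brown adipocytes burn fatty acids and glucose in dense mitochondria, and Ucp1 lets protons back across the inner membrane so that the respiratory chain releases heat. Estrogen-related receptors (ERR, the Esrr genes) with their PGC-1 coactivators drive the nuclear genes for mitochondria in this tissue. Hdac3 is the histone deacetylase of the NCoR corepressor complexes, which many nuclear receptors recruit to hold target genes low, and it is known in brown fat for work at ERR-bound enhancers as well.

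The 4 promoter stretches printed here show the kinds of sequence that sit before the start sites of genes at both ends of this comparison. Perm1 and Cpn2 were among the most lowered genes, and the capitals mark the letters AAGGTCA, the half-site read by ERRs and other nuclear receptors, here on the opposite strand. Btg2 and Maff were higher in KO, and the capitals mark TGACGTCA, the cAMP response element.
Perm1: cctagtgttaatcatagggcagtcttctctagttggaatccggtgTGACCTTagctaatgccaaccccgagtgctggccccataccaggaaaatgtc
Cpn2: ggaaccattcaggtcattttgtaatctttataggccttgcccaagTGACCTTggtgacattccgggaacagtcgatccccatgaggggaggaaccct
Btg2: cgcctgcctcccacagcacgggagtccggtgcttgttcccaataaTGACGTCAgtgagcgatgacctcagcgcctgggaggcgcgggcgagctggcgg
Maff: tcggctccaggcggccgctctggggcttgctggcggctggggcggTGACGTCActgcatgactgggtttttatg
The sequences come from RefSeq on GRCm38.p6, at chr4:156215680-156215776 (plus strand), chr16:30267574-30267670 (minus), chr1:134079269-134079366 (minus) and chr15:79347446-79347519 (plus), and the authors' files use mm9, another build. The first capital lies 202 bases before the annotated start of Perm1, 93 before that of Cpn2, 166 before that of Btg2 and 29 before that of Maff. These 4 were picked because they hold a match. The letters AAGGTCA occur on either strand in 5.38% of the 27025 genes' windows (250 bases before the start to 50 after), and TGACGTCA in 2.03%, so a match in 1 window says nothing of a factor there. The other 5 motifs searched on both strands were TCAAGGTCA, which contains AAGGTCA (0.466% of windows), TCACCCCAC (0.614%), its shorter form TCACCCCA (1.77%), CGCATGCGC (1.95%) and CACGTG (8.09%). RefSeq windows matched 72.0% of the listed genes, below the 80% needed, so the motif shares of genes higher and lower were not compared.

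The authors' deposited tables give 1 mean per group in RPKM (reads scaled to the length of the gene and the depth of the library), and no value per library. Because the means are printed to 15 digits, the whole reads behind them could be recovered for most genes, 11820 (93.0%) in both groups. The libraries so recovered are known only by their totals, which were 5349638 (5.35 M), 7761003 (7.76 M), 7883854 (7.88 M) and 8287514 (8.29 M) reads in Control (7.32 ± 1.33 M, SD, n = 4) and 8478451, 9161343, 9534544 and 9826083 (8.48, 9.16, 9.53 and 9.83 M) in KO (9.25 ± 0.58 M, SD, n = 4). Values per library stand in that order throughout, in RPKM, and genes with too many reads to resolve have means only. Every library correlated more closely with its own group than with the other (mean r over 9834 genes 0.970 to 0.977 against 0.902 to 0.916, across genes, which are no replicates).

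A pair of libraries held transcripts of skeletal muscle. The summed level of 12 of the 13 skeletal muscle markers, the 12 that could be resolved, was 540.1 RPKM in the deepest Control library and 528.5 in the shallowest KO library, against 1.84 to 4.86 in the 3 other Control libraries and 2.14 to 3.26 in the 3 other KO libraries. Acta1, skeletal actin, stood at 100.9 RPKM in that Control library and 104.2 in that KO library, and at 0.0820 to 0.834 in the 6 others. Without this pair, limma on the recovered reads called 1518 genes higher and 1385 lower (with all 8 libraries 2115 and 2009). The part of this tissue in single genes was not tested except where a value without it is given.

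Across the table, 2074 genes were higher (16.3%) and 2282 lower (18.0%) in KO at the authors' adjusted p from edgeR under 0.05, 34.3% of the 12710 in all. The counts of each list below are to be read beside these shares. The log2 fold changes of the genes called had medians of 0.81 and -0.76, beside -0.013 over all genes. At least 4-fold changes numbered 223 higher and 163 lower, and at least 16-fold changes 21 higher and 32 lower. The split depends on the scaling, and a few genes took far more of the reads in KO. The 20 genes that gained the most rose from 4.90% to 13.9% of all reads, with Fasn going from 0.638% to 3.20% and Scd1 from 1.54% to 3.59%. Ratios of the deposited means are 0.24 lower on the log2 scale (median over 10578 genes) than the deposited fold changes, which carry the authors' normalization factors. With library totals alone, limma on the recovered reads called 1063 genes higher and 4006 lower, against the 2115 and 2009 with median-ratio factors. On the 11820 resolved genes, limma with those factors shared 3540 of the authors' 3750 calls (94.4%) in the same direction and called 0 in the opposite direction. All 4 KO libraries lay above all 4 Control libraries for 17.1% of resolved genes and below them for 16.7%, after the same scaling.

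**Figure D1:**
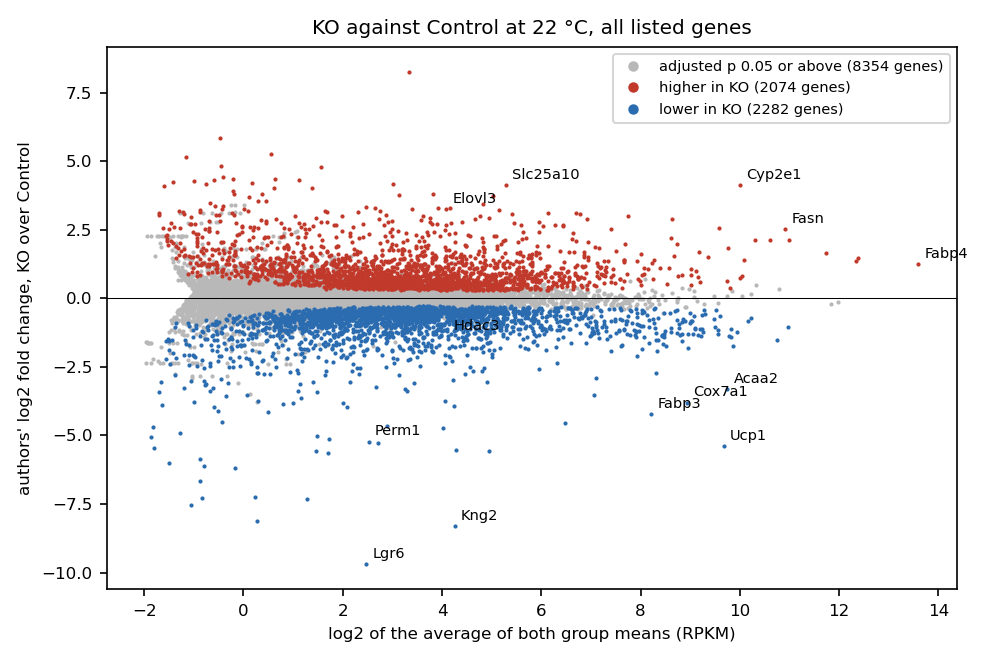
Authors' log2 fold change (KO over Control, vertical axis) of each listed gene at 22 °C against the log2 of the average of both group means in RPKM, with 2074 genes higher in KO in red, 2282 lower in blue and the rest grey. Ucp1, Acaa2, Cox7a1 and Fabp3 stand out as abundant genes far below 0, and Fasn, Fabp4 and Cyp2e1 as abundant genes above it.

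Hdac3 itself was lower in every KO library. It measured 24.8, 25.8, 25.6 and 28.3 RPKM in Control and 9.0, 8.17, 8.26 and 8.83 in KO, 2.59-fold lower (adjusted p = 9.9e-21 in the authors' deposited table). The groups are far apart, and the remaining signal was measured in whole tissue over the whole gene. The labels do not say which part of the gene the floxed alleles delete. In bulk tissue, fewer cells of a type and less RNA per cell cannot be told apart, here and below.

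Of the 6 genes of the NCoR complex, 4 rose in KO (Tbl1x, Tbl1xr1, Ncor1 and Gps2), Hdac3 fell, and 1 did not pass the test. Gps2, the weakest of the 4 (log2 0.42, adjusted p = 0.041), missed the threshold by limma without the Control library of 7.76 M reads (0.099) and without 5 others, 1 at a time. Tbl1x, a scaffold subunit that binds histones and helps exchange corepressors, measured 13.9, 15.2, 14.0 and 14.4 RPKM in Control and 44.3, 45.5, 43.2 and 38.7 in KO, 3.51-fold higher (adjusted p = 2.2e-42 in the authors' deposited table). No KO library came near the Control libraries. Its paralog Tbl1xr1 went from a mean of 8.36 to 19.5 RPKM (2.73-fold) and the corepressor Ncor1 from 21.2 to 33.6 (1.87-fold). Among 9 other histone deacetylases listed, Hdac4 rose (log2 0.89) and Hdac6, a largely cytoplasmic deacetylase, fell (log2 -0.74), and 7 did not pass.

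The ERR and PGC-1 axis was lower in KO. Of its 14 listed genes, 9 fell and 2 rose, beside 18.0% and 16.3% of all genes, with a median log2 fold change of -0.50. Perm1, a muscle and brown fat protein that works with PGC-1 and ERR, measured 9.44, 9.73, 13.0 and 12.8 RPKM in Control and 0.737, 0.0568, 0.109 and 0.132 in KO, 37.3-fold lower in the authors' deposited table (adjusted p = 2.0e-33). The highest KO value, from 24 of the 35 KO reads, belonged to the library with skeletal muscle transcripts, a tissue that also expresses Perm1; the other 3 KO libraries held 2, 4 and 5 reads. Esrrg measured 5.76, 4.32, 7.59 and 6.14 RPKM in Control and 0.930, 1.43, 0.940 and 0.675 in KO (5.06-fold lower, adjusted p = 4.5e-25). Esrra, the most abundant ERR here, measured 42.6, 53.3, 42.2 and 42.9 in Control and 18.0, 19.3, 19.7 and 16.1 in KO (2.11-fold lower, adjusted p = 4.8e-14). Neither receptor's groups overlap.

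The coactivators followed. Ppargc1b measured 16.5, 15.5, 18.0 and 15.8 RPKM in Control and 4.10, 6.24, 4.88 and 4.48 in KO (2.83-fold lower, adjusted p = 1.1e-09 in the authors' deposited table). Ppargc1a, which cold and cAMP induce, was more scattered, at 15.2, 7.40, 5.00 and 6.76 in Control and 1.34, 2.59, 1.61 and 5.01 in KO (2.72-fold lower, adjusted p = 1.5e-04). Its highest KO library matched its lowest Control library. The third coactivator, Pprc1, did not pass (log2 0.10, adjusted p = 0.91). Other genes of the list also fell. They were the mitochondrial RNA polymerase Polrmt (log2 -1.30), the ETS factor Gabpa (-0.52), and Tfam (-0.48) and Peo1 (-0.43), which package and unwind mitochondrial DNA. The 2 genes that rose were the factors Gabpb1 (0.56) and Nrf1 (0.47). By limma, Nrf1 missed the threshold without any 1 of 4 libraries (adjusted p up to 0.072) and Peo1 without any 1 of 5 (up to 0.10). The mitochondrial transcription factors Tfb1m (log2 -0.36) and Tfb2m (-0.05) did not pass.

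**Figure D2:**
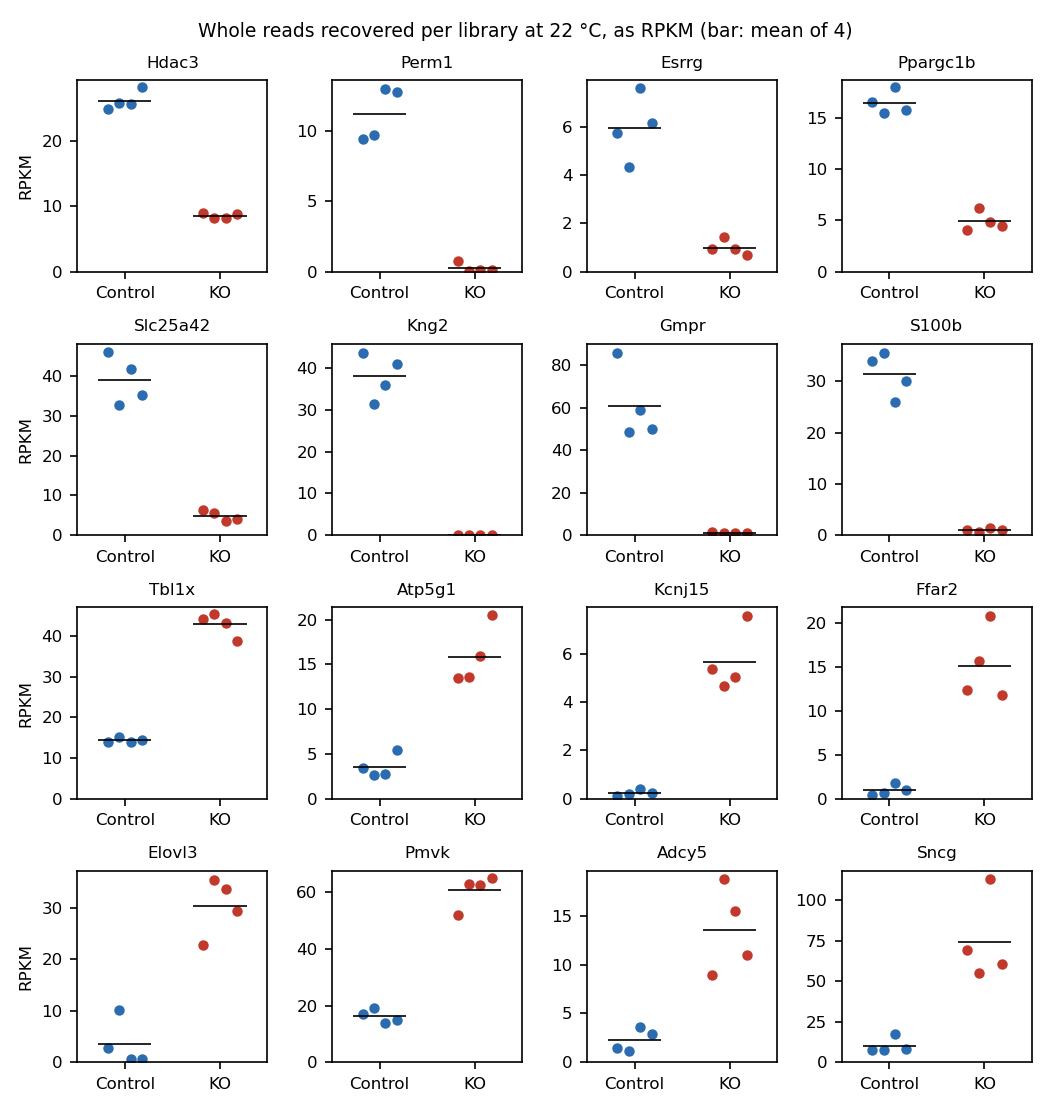
Reads recovered per library at 22 °C as RPKM (vertical axes, each with its own scale) for 16 genes, with 4 Control libraries in blue, 4 KO libraries in red and a bar at each mean. In each panel every KO library lies on 1 side of all Control libraries; Atp5g1, for example, is at 2.67 to 5.42 in Control and 13.5 to 20.5 in KO.

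The thermogenic programme lost most of its transcripts. Of 27 listed genes 17 fell and 3 rose, beside 18.0% and 16.3% of all genes, with a median log2 fold change of -1.31. Ucp1 had a mean of 1607 RPKM in Control and 32.8 in KO, 41.9-fold lower in the authors' deposited table (adjusted p = 4.2e-33). The KO libraries measured 24.8, 68.4, 9.38 and 28.4 RPKM, widely spread and all far under the Control mean. Cox7a1, the heart and brown fat form of a cytochrome c oxidase subunit, fell from 923.6 to 56.4 RPKM (13.9-fold, adjusted p = 1.5e-77), with 49.6, 72.5, 57.3 and 46.2 in the KO libraries. Cidea, a lipid droplet protein of brown fat, fell from 1365 to 432.6 RPKM (log2 -1.42) and the thioesterase Acot11 from 35.9 to 2.03 (-3.93). Letmd1, a mitochondrial protein of brown fat, fell from 137.0 to 22.9 RPKM (5.11-fold).

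Other members of the thermogenic list that fell were the nuclear receptor Ppara (98.8 to 33.5 RPKM), the channels Kcnk3 (log2 -1.82) and Otop1 (-1.98), and the coenzyme A kinase Pank1 (-1.46). Cpt1b, the muscle-type gate of mitochondrial fatty acid entry, fell from 408.2 to 81.0 RPKM (log2 -2.10), a value that may share reads with the readthrough gene listed over it. Cpn2, a subunit of carboxypeptidase N, measured 13.4, 18.9, 7.67 and 11.6 RPKM in Control and 0.206, 0.405, 0.366 and 0.155 in KO, 38.7-fold lower. Against this, Adrb3, the main adrenergic receptor of rodent fat, rose from 20.9 to 56.0 RPKM (log2 1.65), the factor Irf4 from 5.57 to 51.5 (3.44) and the elongase Elovl3 as described below. Brown fat identity genes Prdm16 (log2 -0.46, adjusted p = 0.14) and Zic1 (-0.54, 0.52) did not pass, whereas Ebf2 fell from 14.9, 14.9, 13.3 and 13.0 RPKM to 6.12, 5.49, 4.91 and 4.95 (log2 -1.15). Dio2, which makes active thyroid hormone in brown fat, ran from 1.96 to 32.3 RPKM among Control libraries and 1.26 to 17.6 among KO libraries (log2 -0.44, adjusted p = 0.64), so no difference could be told from that spread.

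Nuclear genes of the respiratory chain moved almost as a block. Of 82 listed subunits of the 5 complexes, 77 fell and 2 rose, with a median log2 fold change of -1.06 beside -0.013 over all genes. All 36 listed genes of complex I, all 4 of complex II and all 10 of complex III with cytochrome c fell, and the medians ran from -0.91 for complex IV to -1.22 for complex II. Ndufv1, the NADH-binding subunit of complex I, fell from 554.5 to 148.8 RPKM (log2 -1.66, adjusted p = 7.3e-26 in the authors' deposited table), and the iron-sulfur subunit Sdhb of complex II from 705.8 to 203.0 (-1.56). Cytochrome c1 (Cyc1) and cytochrome c (Cycs) fell by 1.38 and 1.37 on the log2 scale. In complex IV the housekeeping form Cox4i1 fell (-0.70), and Cox4i2 (-0.35) and the muscle form Cox6a2 (-0.13) did not pass. Summed, these last 2 stood at 8.73 RPKM in the Control library with skeletal muscle transcripts and 1.80 to 3.01 in the other Control libraries. In KO the sums were 6.11 and 1.68 to 2.12. The part of muscle in their values was not tested. Among 22 subunits resolved per library, 16 had all KO libraries below all Control libraries and 1 above, beside 16.7% and 17.1% of all resolved genes. Usmg5 of complex V, among those below, measured 336.6, 393.0, 316.5 and 409.1 RPKM in Control and 117.3, 143.1, 155.6 and 124.8 in KO.

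The 2 subunit genes that rose were in complex V. Atp5g1 and Atp5g3 encode the same mature c-subunit of the ATP synthase rotor from separate genes, as does Atp5g2, and the first pair rose while Atp5g2 fell. Atp5g1 measured 3.45, 2.67, 2.78 and 5.42 RPKM in Control and 13.5, 13.6, 15.9 and 20.5 in KO (5.25-fold higher, adjusted p = 3.0e-06 in the authors' deposited table). Atp5g3 is far more abundant and went from a mean of 124.8 to 188.1 RPKM (log2 0.83, adjusted p = 2.3e-08). Atp5g2 lay between them in level and went the other way, with 41.0, 48.8, 49.6 and 54.5 RPKM in Control and 25.2, 28.8, 38.7 and 27.8 in KO (log2 -0.45, adjusted p = 0.011); by limma it missed the threshold without any 1 of 5 libraries (adjusted p up to 0.075). These genes have processed copies in the genome, and the sources used here do not say how reads shared between copies were counted.

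Fuel oxidation upstream of the chain fell with it. In the TCA cycle 13 of 15 genes fell, 0 rose and the median was -1.48, the lowest of the mitochondrial lists. Suclg1 and Sucla2, subunits of succinyl-CoA synthetase, fell 3.83-fold and 3.48-fold in the authors' deposited table. Mdh1, the cytosolic malate dehydrogenase (log2 -0.22), and Suclg2 (-0.10), the GTP-forming partner of Suclg1, did not pass. Fatty acid oxidation had 18 of 24 genes lower and 2 higher, with a median of -0.81. Its thiolase Acaa2 fell from 1583 to 134.2 RPKM (10.00-fold, adjusted p = 9.3e-81), the carnitine carrier Slc25a20 from 251.8 to 82.3, and the electron transfer flavoprotein genes Etfb and Etfdh fell by 1.36 and 1.34 on the log2 scale. Coenzyme Q synthesis had 9 of 12 genes lower and 1 higher (Coq10b, log2 0.91, which limma did not call without the KO library of 9.16 M reads, adjusted p = 0.054, or that of 9.83 M, 0.052). Coq7 measured 36.1, 36.1, 29.6 and 33.4 RPKM in Control and 7.69, 11.0, 12.8 and 10.4 in KO, with no overlap.

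The machinery that makes mitochondrial proteins was lower as well, to a smaller degree. All 74 listed genes of the mitochondrial ribosome were resolved. Of these 51 fell and 0 rose, and the median was -0.56. All KO libraries lay below all Control libraries for 41, beside 16.7% of all resolved genes. Mrps36 fell the most, at 23.5, 22.9, 18.2 and 17.5 RPKM in Control and 2.80, 3.35, 3.22 and 2.98 in KO (5.60-fold, adjusted p = 2.1e-23 in the authors' deposited table), a protein also described as a subunit of the 2-oxoglutarate dehydrogenase of the TCA cycle. Mrpl34 went from a mean of 81.7 to 19.9 RPKM (log2 -1.80). Mitochondrial aminoacyl-tRNA synthetases had 10 of 17 lower and 0 higher, led by Aars2 (log2 -1.27), and import and chaperone genes 11 of 23 lower and 0 higher, among them Phb (-1.18). Cytosolic counterparts moved little. The cytosolic ribosome had 13 of 79 lower and 1 higher, 17.7% called against 34.3% of all genes, with a median of -0.15, and cytosolic synthetases had 2 of 20 lower and 3 higher.

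**Figure D3:**
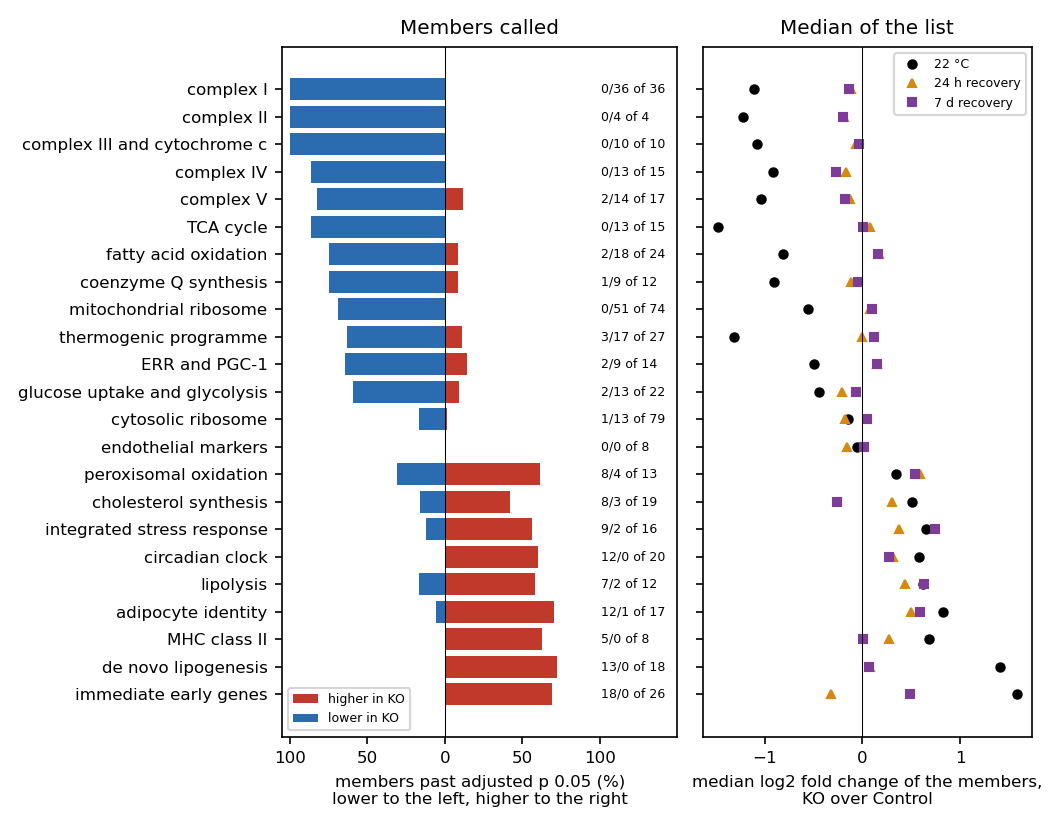
Left, percent of each list's genes called at 22 °C at the authors' adjusted p under 0.05, lower in KO to the left in blue and higher to the right in red, with counts higher/lower of listed genes. Right, median log2 fold change (KO over Control) at 22 °C (circles), 24 h (triangles) and 7 d of recovery (squares); complexes I to V have medians from -1.22 to -0.91 at 22 °C and nearer to 0 at both recovery times.

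Mitochondrial carriers did not move as a group, with 7 of 39 higher and 11 lower (median -0.17), and members changed in both directions. Slc25a48 fell the most (3.77 to 0.211 RPKM, log2 -3.81). Slc25a42, which brings coenzyme A into mitochondria, measured 46.1, 32.7, 41.9 and 35.2 RPKM in Control and 6.28, 5.64, 3.57 and 3.98 in KO (6.77-fold lower in the authors' deposited table, adjusted p = 9.2e-21). Slc25a10, the dicarboxylate carrier that exports malate for lipid synthesis, rose from a mean of 4.92 to 73.3 RPKM (17.5-fold, adjusted p = 3.3e-34). The citrate carrier Slc25a1, which feeds the same pathway, rose from 96.0 to 268.7 RPKM (log2 1.71).

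Glucose handling was split. Of 22 genes of glucose uptake and glycolysis, 13 fell and 2 rose, with a median of -0.44. The heart-type lactate dehydrogenase Ldhb fell from 247.3 to 28.0 RPKM (7.51-fold, adjusted p = 6.2e-73 in the authors' deposited table), while the muscle-type Ldha did not pass (log2 -0.08). Pyruvate kinase Pkm (log2 -1.86) and liver-type phosphofructokinase Pfkl (-1.90) fell. The 2 that rose, Pfkfb1 (log2 1.27) and Pfkfb3 (1.18), make the activator fructose 2,6-bisphosphate. The transporters Slc2a4 (log2 0.06) and Slc2a1 (-0.38) did not pass. Pyruvate metabolism around the mitochondrion changed in both directions, with 6 of 14 lower and 2 higher: the inhibitory kinase Pdk4 fell from 537.9 to 169.8 RPKM, and pyruvate carboxylase Pcx rose from 191.5 to 427.8.

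De novo lipogenesis, the making of fatty acids from citrate, was higher. Of 18 listed genes 13 rose and 0 fell, against 16.3% and 18.0% of all genes, and the median was 1.41. Fatty acid synthase Fasn rose from a mean of 642.2 to 3219 RPKM (5.78-fold, adjusted p = 5.4e-15 in the authors' deposited table), malic enzyme Me1 from 33.6 to 210.0 (7.38-fold) and the elongase Elovl5 from 23.8 to 130.8 (6.45-fold). The desaturase Scd2 rose from 8.32 to 53.5 RPKM and the far more abundant Scd1 from 3174 to 7420. Srebf1, a transcription factor of the pathway, rose from 68.3 to 164.8 RPKM (log2 1.5). The glucose-responsive factor Mlxipl did not pass (-0.36, adjusted p = 0.080), nor did Acly (0.62, 0.23), Thrsp (0.50, 0.069), Mid1ip1 (0.60, 0.050) and Nr1h3 (0.08, 0.77).

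Lipid storage and uptake genes divided by member. Fatty acid binding proteins changed places: Fabp3, the heart and brown fat form, fell from 567.0 to 26.0 RPKM (18.5-fold, adjusted p = 2.7e-26 in the authors' deposited table), whereas Fabp4 rose from 8202 to 16522 and Fabp5 from 27.0 to 192.8 (8.33-fold). The 4 KO libraries of Fabp3 measured 30.6, 38.4, 30.2 and 4.77 RPKM, the deepest of them the lowest. Lipoprotein lipase Lpl rose from 665.3 to 2452 RPKM and the fatty acid transporter Slc27a1 from 70.8 to 214.9, and Cd36 did not pass (log2 0.07). Of 12 lipid droplet and lipolysis genes 7 rose, among them Plin2 (251.3 to 1268 RPKM) and Cidec (541.5 to 1992), the droplet protein of white fat, and 2 fell, Cidea among them. In triglyceride synthesis 5 of 14 rose and 5 fell. The acyltransferases Agpat2 (log2 1.69) and Agpat9 (1.78) were higher. Glycerol kinase Gyk (-2.51) and the glycerol 3-phosphate dehydrogenases Gpd1 (-1.72) and Gpd2 (-1.61) were lower. Peroxisomal oxidation had 8 of 13 genes higher and 4 lower; Ehhadh, the bifunctional enzyme of the pathway, rose from 44.9 to 162.4 RPKM.

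Adipocyte identity genes had 12 of 17 higher and 1 lower (Aqp7, log2 -0.83), with a median of 0.82; Pparg did not pass (0.14, adjusted p = 0.55). Adipoq rose from 840.3 to 1203 RPKM, the insulin receptor Insr from 17.8 to 32.1 and Cfd, adipsin, from 1846 to 4947. Among 12 white fat markers 5 rose and 0 fell. Sncg, synuclein gamma, measured 7.66, 7.92, 17.7 and 8.08 RPKM in Control and 69.1, 55.3, 112.8 and 60.8 in KO (8.42-fold higher, adjusted p = 5.9e-10 in the authors' deposited table). Nrip1, the corepressor RIP140 that holds down oxidative genes in fat, went from a mean of 5.74 to 18.1 RPKM (log2 1.89), and leptin (Lep, 1.68) and resistin (Retn, 2.63) rose as well. Elovl3, listed among the brown markers, rose against the other markers. It measured 2.89, 10.1, 0.608 and 0.642 RPKM in Control and 22.7, 35.4, 33.6 and 29.4 in KO (9.50-fold, adjusted p = 4.5e-09), while 6 of the 9 brown adipocyte markers fell.

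Cholesterol synthesis was mixed, with 8 of 19 genes higher, 3 lower and a median of 0.51. Pmvk, phosphomevalonate kinase, measured 17.0, 19.1, 13.9 and 14.8 RPKM in Control and 51.9, 62.9, 62.3 and 64.8 in KO (4.39-fold higher, adjusted p = 4.7e-30 in the authors' deposited table). Sc5d, a late desaturase, rose from 16.3 to 58.8 RPKM and Insig1, which restrains SREBP processing, from 54.0 to 373.3 (8.08-fold). Among the genes that fell were Hsd17b7 (log2 -1.13) and Dhcr7 (-1.01).

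The 12 genes with the largest falls and the 12 with the largest rises (average log2 CPM of at least 1) hold many that were nearly silent in 1 group. The smallest higher-group mean of any listed gene was 0.501 RPKM. A gene below that level in 1 group is therefore in the table through its other group alone. Its direction was fixed by the listing, here and elsewhere in the text. Kng2, kininogen 2, measured 43.7, 31.5, 36.0 and 41.0 RPKM in Control and 0.140, 0.0433, 0.125 and 0.0807 in KO, which is 9 KO reads against 2778 (log2 -8.30, adjusted p = 9.5e-116 in the authors' deposited table). Gmpr, guanosine monophosphate reductase, measured 86.0, 48.4, 59.2 and 50.1 in Control and 1.59, 1.05, 0.877 and 0.786 in KO (47.7-fold lower). Lgr6, a receptor for R-spondins, had 14.0, 12.8, 9.49 and 7.83 RPKM in Control and 1 read in all of KO, a ratio of 1196 with a 95% exact counting interval of 214.3 to 47299, on the scale of the median-ratio factors (1439 by library totals alone). That interval, like the others here, covers counting error only. For Fras1, an extracellular matrix protein with 3 KO reads, the ratio on that scale was 181.4 (61.7 to 882.4), and for the kinase Sgk2 with 2 it was 85.6 (23.3 to 712.9).

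Slco4a1, Arhgdig and Dnajc22 had 0 reads in all 4 KO libraries. Taking 3 reads over the group as the floor and scaling by the median-ratio factors, the transporter gene Slco4a1 was at least 30.8-fold lower, the GDP dissociation inhibitor Arhgdig at least 24.9-fold and the chaperone Dnajc22 at least 16.8-fold. By library totals alone these bounds were 37.1, 29.9 and 20.2. Plet1os, an antisense gene, also fell (log2 -5.66 in the authors' deposited table), but the TruSeq v2 kit does not mark strand, so its reads cannot be told from those of the gene it overlaps. S100b, a calcium-binding protein found in brown adipocytes and in Schwann cells, measured 33.9, 35.6, 25.9 and 30.1 RPKM in Control and 0.994, 0.526, 1.33 and 1.10 in KO (26.8-fold lower). Of the 4 Schwann cell and nerve markers listed, S100b included, Mbp rose (log2 0.69) and 2 did not pass.

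The largest rises include enzymes of liver and amino acid metabolism. Cyp2e1, a cytochrome P450 of liver and fat, rose from 131.0 to 1928 RPKM (17.3-fold, adjusted p = 7.2e-21 in the authors' deposited table). Cbs, which makes cystathionine from homocysteine, measured 0.0747, 0, 0.253 and 0 RPKM in Control and 0.848, 3.53, 5.91 and 1.22 in KO, and Hgd of tyrosine breakdown had 1 Control read against 56 (ratio 53.3 on the scale of the median-ratio factors, 95% exact counting interval 9.18 to 2143). The potassium channel Kcnj15 measured 0.103, 0.189, 0.418 and 0.221 in Control and 5.35, 4.67, 5.03 and 7.54 in KO (27.9-fold higher). Ffar2, a receptor for short-chain fatty acids, measured 0.397, 0.684, 1.84 and 1.02 in Control and 12.4, 15.7, 20.8 and 11.8 in KO (17.7-fold higher). Golga7b and Cdca7l rose from means of 0.137 and 0.125 to 1.58 and 1.63 RPKM. Like Cbs, Hgd and Kcnj15, they reach the table through their KO level alone, so their direction was fixed by the listing. Also among the 12 were Fos, Egr2 and Egr3, immediate early genes, which behaved otherwise.

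Immediate early genes, the rapid transcriptional response to a stimulus, spread widely between libraries. The authors' deposited table calls 18 of 26 higher and 0 lower, with a median of 1.58, but the rise came from some KO libraries and not from others. Fos measured 1.07, 0.492, 6.00 and 1.33 RPKM in Control and 50.8, 50.3, 0.802 and 2.58 in KO (log2 3.82, adjusted p = 8.0e-04). Egr1 measured 1.52, 0.545, 11.8 and 1.96 in Control and 52.1, 62.3, 3.0 and 9.91 in KO, and Egr2 0.315, 0.130, 0.599 and 0.366 in Control and 7.04, 8.69, 0.248 and 3.54 in KO. In each of these the KO library of 9.53 M reads lay within or below the Control range. The nuclear receptor Nr4a1 was lower there, at 1.14 RPKM, than in any Control library (31.3, 3.43, 31.9 and 22.9), with 62.0, 84.2 and 58.0 in the 3 other KO libraries. Summed over the 25 resolved genes, Control libraries measured 163.8, 69.2, 237.3 and 147.3 RPKM and KO libraries 562.2, 682.1, 91.4 and 274.0.

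The calls of this list followed that library and the test. Of the 25 resolved genes the authors' test calls 17 and limma 4. Without the KO library of 9.53 M reads limma calls 19, and without any 1 of the 7 others 4. Fos had an adjusted p of 0.28 and Egr2 of 0.15 by limma with all libraries, and Egr3 (authors' deposited log2 4.32) of 0.21. Maff and Ier5 were among the 3 of 25 genes with all KO libraries above all Control libraries, a share not above the 17.1% of all resolved genes. Maff, a small partner of bZIP factors, measured 1.22, 0.843, 1.12 and 1.30 RPKM in Control and 5.18, 5.21, 2.46 and 5.72 in KO (log2 2.30, adjusted p = 4.8e-08 in the authors' deposited table). Ier5 measured 3.49, 2.09, 2.13 and 3.28 in Control and 5.92, 5.21, 4.68 and 6.04 in KO (log2 1.24). Btg2, an antiproliferative gene, rose from a mean of 13.2 to 73.9 RPKM (log2 2.75), with Control libraries at 8.19, 6.02, 28.7 and 9.90 and KO libraries unresolved.

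**Figure D4:**
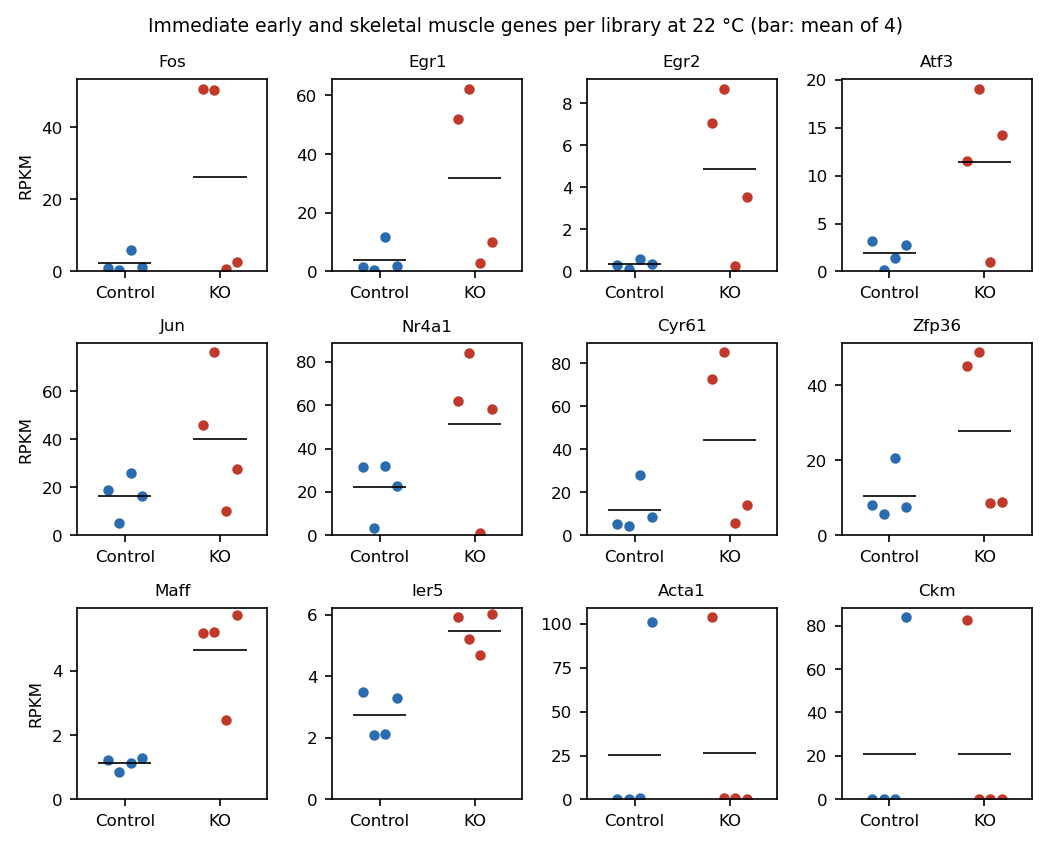
Reads recovered per library at 22 °C as RPKM (vertical axes, each with its own scale) for 10 immediate early genes and the skeletal muscle genes Acta1 and Ckm, with Control in blue, KO in red and a bar at each mean. Fos and Egr1 are high in some KO libraries and low in others, and Acta1 is high in 1 Control library (100.9) and 1 KO library (104.2).

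Signalling from the adrenergic receptor had both directions, with 4 of 18 genes higher and 5 lower. Adcy5, an adenylyl cyclase, measured 1.48, 1.2, 3.61 and 2.93 RPKM in Control and 8.90, 18.7, 15.5 and 11.0 in KO (6.96-fold higher, adjusted p = 8.5e-17 in the authors' deposited table). Gnas, the stimulatory G protein, fell from a mean of 218.1 to 68.8 RPKM, Rgs2 from 75.8 to 18.9, and the cAMP phosphodiesterase Pde4d from 15.1 to 3.41. The receptor and a cyclase were higher while the G protein between them was lower.

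Clock genes had 12 of 20 higher and 0 lower (median 0.58), beside 16.3% and 18.0% of all genes. Of the 17 resolved, 10 had all KO libraries above all Control libraries, beside 17.1% of all resolved genes. Tissue was taken at 1 time of day, so a changed level and a changed phase cannot be told apart. Arntl (Bmal1), which is near its trough late in the light phase, measured 0.321, 0.399, 0.567 and 0.207 RPKM in Control and 1.83, 1.58, 2.49 and 1.85 in KO (5.99-fold higher, adjusted p = 1.4e-13 in the authors' deposited table). Its activator Rora rose from a mean of 3.24 to 11.7 RPKM, and Dbp, an output gene, from 33.1 to 51.1. The repressor Nr1d1, a known recruiter of Hdac3, rose (log2 0.82), and Per2 (0.11) and Cry1 (-0.25) did not pass.

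The integrated stress response had 9 of 16 genes higher and 2 lower (median 0.65). Chac1, which degrades glutathione, measured 0.953, 2.30, 2.10 and 0.692 RPKM in Control and 15.3, 11.7, 11.5 and 9.28 in KO (9.06-fold higher, adjusted p = 1.2e-08 in the authors' deposited table), whereas Ddit3 (CHOP) fell (log2 -0.87). Of 16 genes of the unfolded protein response 3 rose, with Dnajb9 (log2 1.56) ahead, and 2 fell, with Hyou1 (-1.29) ahead, 31.2% called beside 34.3% of all genes, and of 13 heat shock genes 1 rose. Oxidative defence had 11 of 25 higher and 5 lower. The cytosolic dismutase Sod1 rose from 370.3 to 664.2 RPKM, glutathione reductase Gsr from 8.59 to 20.9 and thioredoxin Txn1 from 69.1 to 117.7. Mitochondrial dismutase Sod2 fell from 131.9 to 42.2 and Prdx5 from 367.6 to 115.5.

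Matrix genes changed little as groups. Of 25 collagens 4 rose and 4 fell, near the share over all genes, with Col27a1 (4.76 to 0.490 RPKM) and Col12a1 (4.71 to 1.10) among the lowest and Col5a3 (log2 1.18) and Col20a1 (1.60) among the higher in the authors' deposited table. Matrix remodelling had 3 of 25 higher and 0 lower, 12.0% called beside 34.3% of all genes. Cell cycle genes had 1 of 15 higher, the inhibitor Cdkn1a (log2 1.24).

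How many markers of other cells passed the test differed by cell type. Of 8 endothelial markers 0 passed (1 at an unadjusted p under 0.05, and 0 of 7 resolved by limma), and the summed level of 7 resolved ones was 143.0 to 191.5 RPKM in Control and 139.3 to 161.1 in KO. Of 12 macrophage markers 2 rose (Lgals3, log2 2.0, is 1), near the 16.3% higher over all genes, and limma called 5. The sums of these 12 markers were 72.8 to 105.4 RPKM in Control and 90.2 to 136.2 in KO. MHC class II genes had 5 of 8 higher, among them H2-Aa (65.7 to 97.3 RPKM). Their sums over 7 genes were 138.1 to 189.0 RPKM in Control and 168.1 to 287.4 in KO. The sums in this paragraph are scaled by library totals and not divided by the median-ratio factors (1.013 to 1.149 in Control, 0.887 to 0.948 in KO). Those factors would lower the Control sums and raise the KO sums, so overlap of the groups is not read from them. Of 8 T and NK cell markers 5 reached the table. Members that reach it through their KO level alone had to be higher, so neither their count nor their summed level is compared. Interferon response genes had 5 of 20 higher, beside 16.3% of all genes. Usp18, a negative regulator of that response, measured 1.48, 1.89, 4.01 and 1.84 RPKM in Control and 25.4, 20.1, 15.8 and 13.3 in KO (9.47-fold higher, adjusted p = 1.5e-10). Erythroid, neutrophil, mast cell, B cell and skeletal muscle markers had 0 of 27 past the threshold in the authors' deposited table (0 at an unadjusted p under 0.05, and 0 of 24 resolved by limma).

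Pericyte and smooth muscle markers had 2 of 7 lower, beside 18.0% of all genes. Des, desmin, measured 15.9, 19.1, 10.9 and 23.0 RPKM in Control and 8.58, 1.78, 1.51 and 0.897 in KO (4.61-fold lower, adjusted p = 8.4e-04 in the authors' deposited table). Its highest value in each group was in the library with skeletal muscle transcripts, a tissue rich in desmin, and the groups do not overlap with or without those libraries. Rgs5 fell by 0.35 on the log2 scale, and Myh11 (log2 -0.16) did not pass. Sums of the 6 resolved markers, Des included, were 47.5 to 64.6 RPKM in Control and 25.8 to 39.7 in KO. The highest sum of each group was in the library with skeletal muscle transcripts. These sums too are not divided by the median-ratio factors, which would bring the groups closer, so a separation is not read from them.

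The effect of the knockout at 22 °C was tested against its effect after recovery from cold. The comparisons share no library. The effect differed for 1955 of 10734 genes at 24 h (18.2%) and 1569 of 10591 at 7 d (14.8%), by a normal test on errors rebuilt from the authors' p-values with Benjamini-Hochberg adjustment at 0.05. More genes were called at 22 °C (34.3%) than in the KO comparison at 24 h (18.5%) or 7 d (15.3%). Of the genes higher at 22 °C and listed at both times, 704 of 2005 (35.1%) were also called higher at 24 h, which is 53.6% of the calls at 24 h, and of those lower 540 of 2251 (24.0%) were also lower, 54.8% of the calls at 24 h. Among the genes lower at 22 °C the median log2 fold change was -0.75 there and -0.20 at 24 h, and 110 were called higher at 24 h. Genes picked by their effect at 22 °C, here and below, tend by that choice to show a smaller effect at other times. At 7 d, 36.6% of the higher and 20.7% of the lower genes were called again in the same direction.

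Oxidative genes were prominent among those whose effect differed. For the respiratory chain, 14 of the 82 genes were lower at 24 h and 6 at 7 d, the medians were -0.13 and -0.17, and the effect itself differed for 63 of 77 testable genes at 24 h and 62 of 72 at 7 d, upwards except for 1 gene of complex V at 7 d. In the TCA cycle it differed for 14 of 15 and 13 of 14 genes, in fatty acid oxidation for 16 of 23 and 17 of 24, in the mitochondrial ribosome for 43 of 71 and 40 of 71, and in the ERR and PGC-1 axis for 10 of 14 and 8 of 14, each upwards. Ucp1 had a log2 effect of -5.39 at 22 °C, -0.21 at 24 h and -0.38 at 7 d in the authors' deposited tables (adjusted p of the difference 1.7e-17 and 3.9e-16). Perm1 went from -5.22 to -0.10 and -0.18 (difference 2.3e-19 and 2.3e-18), Esrrg from -2.34 to 0.65 and 0.18, Fabp3 from -4.21 to 1.22 and 0.49, and Acaa2 from -3.32 to -0.11 and -0.63. Lipogenesis showed the opposite order, with 9 of 18 genes at 24 h and 10 of 16 at 7 d less raised than at 22 °C. Fasn had an effect of 2.53 at 22 °C and -0.15 at 24 h (difference 1.6e-08), and Srebf1 of 1.5, -0.49 and 0.16.

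**Figure D5:**
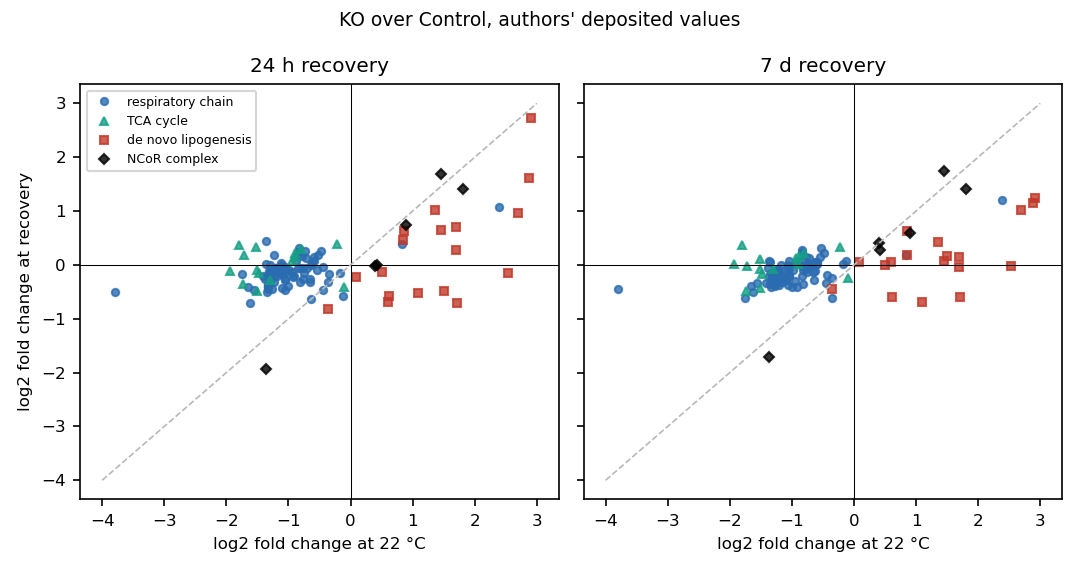
Authors' log2 fold change (KO over Control) after 24 h (left) and 7 d (right) of recovery, vertical axes, against that at 22 °C, horizontal axes, for genes of the respiratory chain (circles), TCA cycle (triangles), de novo lipogenesis (squares) and the NCoR complex (diamonds), with a dashed line of equal effects. Respiratory chain and TCA genes lie near -1 at 22 °C and near 0 at recovery, and the corepressor genes lie close to the line.

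Other effects at 22 °C were also seen after recovery. Tbl1x had effects of 1.81, 1.40 and 1.40 at 22 °C, 24 h and 7 d (adjusted p of the difference 0.11 for both), Cyp2e1 of 4.12, 3.16 and 3.30 (0.27 and 0.40), Elovl3 of 3.25, 3.61 and 2.87 (0.80 for both), Ehhadh of 2.08, 2.64 and 2.28, Plin2 of 2.57, 2.25 and 2.14 and Fabp4 of 1.24, 1.09 and 1.13 in the authors' deposited tables. A difference that misses the threshold does not show that effects are equal. Kng2, Gmpr and S100b stayed low at a smaller size, with S100b at -4.74, -1.61 and -2.18. For Fos the 24 h effect was -1.81 (difference 6.6e-04 by the rebuilt errors and 0.53 by limma on the recovered reads) for a gene with uneven KO libraries at 22 °C.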

How the data were processed

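Interscapular brown fat was snap-frozen and RNA was made with TRIzol and RNeasy, depleted with Ribo-Zero and built into TruSeq v2 libraries, per the labels' protocols. The submitters' processing notes name STAR, featureCounts, edgeR and the build mm9, with versions not given in the sources used here. Deposited by the authors are a log2 fold change (KO over Control, with their normalization factors), an average log2 CPM and the p-value of edgeR, raw and adjusted. The group means of the authors carry no unit and were read as RPKM, for which library totals and whole reads come out; the smallest higher-group mean of any gene was 0.501 RPKM. The authors' adjustment ran over up to 13414 genes.

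The planned count model was not fitted, and the main test is an adjusted p of the authors under 0.05. Whole reads per library were recovered as the only set of 4 numbers that gives the deposited mean (relative tolerance 1e-14, up to 5000 reads over the 4 libraries), and tested with voom and limma 3.58.1 in R 4.3.3 (Python 3.11.15, numpy 2.4.6, scipy 1.17.1) with median-ratio size factors. The difference between times used errors rebuilt from each deposited p (up to 0.9). The recovery of reads, the limma fit of KO against Control and the difference test on rebuilt errors were tested on simulated data. Libraries were grouped by their labels.

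Members and the 55 gene lists were chosen with earlier results of these data known. The rule for named genes takes Hdac3, Ucp1, 12 genes per direction with the largest log2 fold change (adjusted p under 0.05, average log2 CPM of at least 1), up to 5 members with the smallest p of each list with 3 or more called, and all genes of the NCoR and ERR lists; predicted loci were passed over, and some genes under the rule are not reported here. Outside the rule, and chosen after their values were seen, are Acly, Acta1, Adipoq, Aqp7, Atp5g1, Atp5g2, Atp5g3, Cd36, Cdkn1a, Cfd, Ckm, Coq10b, Cox4i1, Cox4i2, Cox6a2, Cry1, Ddit3, Des, Dhcr7, Dio2, Egr1, Hdac4, Hdac6, Ier5, Irf4, Kcnk3, Ldha, Lgals3, Mbp, Mdh1, Mid1ip1, Mlxipl, Myh11, Nr1d1, Nr1h3, Nr4a1, Otop1, Pank1, Per2, Pfkfb1, Pfkfb3, Ppara, Pparg, Prdm16, Rgs5, S100b, Scd1, Slc25a1, Slc2a1, Slc2a4, Suclg2, Thrsp and Zic1, as were the alternatives with limma and the promoter motifs other than the ERR type.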

Additional observations from a re-analysis of the deposited data

Results flagged for a closer look

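Among the 41 genes with values per library in the text, 78 groups of 4 libraries were examined with Dixon's criterion, which asks whether the highest or lowest library stands apart, and 11 had such a library. Chance alone gives about 1 in 20 for normal values in genes picked without regard to them. Some of these genes were picked after their values were seen, and all share the same 8 libraries. The 11 of 78 are therefore not weighed against that rate. Acta1 stood at 100.9 RPKM in 1 Control library and at 104.2 in 1 KO library, the pair that held the other skeletal muscle transcripts, and Des at 8.58 and Perm1 at 0.737 in that KO library. Fos at 6.00 RPKM, Egr1 at 11.8, Sncg at 17.7 and Usp18 at 4.01 were each high in the Control library of 7.88 M reads. Maff at 2.46 was low in the KO library of 9.53 M reads. Esrra at 53.3 was high in the Control library of 7.76 M reads. Lgr6 at 0.0301 is the single read found in KO.

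The effect of the knockout at 22 °C differed from that after recovery for most of the genes with the largest changes, by the test on rebuilt errors. These genes were picked for the size of their effect at 22 °C. That choice by itself favours an effect nearer to 0 after recovery, so the direction and number of these differences are described only. The values that follow are the effect after recovery minus the effect at 22 °C on the log2 scale, so a positive value means a higher effect after recovery. At 24 h the difference was 5.18 for Ucp1, 7.95 for Lgr6, 6.91 for Kng2, 6.33 for Slco4a1, 6.22 for Arhgdig, 6.22 for Dnajc22, 5.70 for Sgk2, 3.88 for Plet1os, 2.96 for Gmpr, 4.28 for Cpn2 and 5.13 for Perm1. At 7 d it was 5.00 for Ucp1, 7.06 for Lgr6, 5.23 for Kng2, 6.50 for Slco4a1, 6.15 for Arhgdig, 4.42 for Dnajc22, 8.07 for Sgk2, 3.52 for Plet1os, 3.51 for Gmpr, 3.94 for Cpn2 and 5.04 for Perm1. Sgk2 was higher in KO at 7 d (log2 1.90, adjusted p = 0.0038 in the authors' deposited table). Lgr6, Slco4a1, Arhgdig, Dnajc22 and Sgk2 had 2 or fewer KO reads at 22 °C, so the size of their difference depends on the prior count of the authors' fit.

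Among the genes with the largest rises at 22 °C, those whose effect differed had negative differences, the direction that their choice favours. Fos and Egr2 did not pass the authors' test after recovery where listed. At 24 h the difference was -3.46 for Cbs, -2.08 for Kcnj15, -1.68 for Ffar2, -2.51 for Slc25a10, -6.15 for Egr2, -2.24 for Cdca7l and -5.63 for Fos. At 7 d it was -2.65 for Kcnj15, -2.18 for Slc25a10, -2.08 for Golga7b, -2.15 for Cdca7l and -4.76 for Fos. By limma on the recovered reads the 24 h difference of Fos (adjusted p = 0.53) and Egr2 (0.29) did not pass. Hdac3 itself was lowered a little more at 24 h than at 22 °C, with a difference of -0.56.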

How the results depend on the processing

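All alternatives on the recovered reads were chosen after seeing the data. At a minimum of 2-fold, 770 genes were higher and 748 lower in KO at 22 °C. With limma scaled by library totals alone, 1063 were higher and 4006 lower. Without the 2 libraries that held skeletal muscle transcripts limma called 1385 lower, with fewer libraries to test on. A threshold of 0.01 left 1242 genes whose effect differed at 24 h and 983 at 7 d. The other settings (threshold of 0.01, 1.5-fold, minimum levels, adjustment over listed genes, centring, limma with median-ratio factors, and for the difference the limma interaction with 1589 and 1480 genes and the recovery tables with 1923) stayed within 1.5 times of the counts reported. Leaving out each library in turn, limma called 1812 to 2035 genes higher and 1672 to 1945 lower. Of the 175 genes named, no gene called reversed its direction in a ratio of means or by limma. Limma called 76 of the 81 called genes it could test; it did not call Fos, Egr1, Egr2, Egr3 and Nr4a1, and it called Mlxipl (adjusted p = 0.048) and Mid1ip1 (0.033), which the authors' test did not; both missed the threshold without 1 library (up to 0.12 and 0.083). No paired analysis was possible because the deposited tables hold no replicate numbers and the recovered libraries are known only by their totals. DESeq2, edgeR and a filter on low counts were not run, on the deposited means or on the recovered reads. Depth limits genes near 0: 1 read is worth 0.102 to 0.187 RPKM for a gene of 1 kb here.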
